A study of Homo sapiens with 16 samples.

Results

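The genomic bins described here are 12547 intervals of 20 kb on chromosomes 1 to 22 of human build hg19 whose contacts with themselves were most in excess after the shortest HindIII digestion, out of 129998 autosomal bins present in all 8 files of the second sequencing run. They come from Hi-C libraries of K562 cells, an established human line from a chronic myeloid leukaemia with a rearranged karyotype. Cells were fixed with formaldehyde, digested with HindIII for 0.25 h, 1 h, 3 h or 12 h, and otherwise handled alike, per the labels. Each time had 2 replicates, and the labels do not say whether these came from separate cultures, so the spread between them may be technical. The study's design text gives the purpose of the shortest digestions as capturing the most accessible boundaries.

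For each bin the self share was the balanced signal of the bin with itself over the sum of all its signal, and D was the log2 ratio of the mean self share of both 0.25 h libraries to the mean of both 12 h libraries. The members were selected on these measured values: they are the 10% of bins with the highest D, called top-decile bins below. D existed for 125461 bins. Another 3253 bins had no self contact at either time, 175 had none at 12 h alone and 1109 had none at 0.25 h alone, and these could not be ranked. The threshold was a D of 1.533, a 2.89-fold higher self share at 0.25 h, against a median D over all bins of 0.79 (1.73-fold) and a median D of 1.83 (3.56-fold) in the top-decile bins. Because the rule used the 0.25 h and 12 h libraries, every contrast between these times is given as a description with no test, and the 1 h and 3 h libraries, which the rule did not use, carry the only test.

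In Hi-C, a restriction enzyme cuts fixed chromatin inside nuclei, and ends lying close together are ligated and sequenced as pairs. A pair whose ends both fall in the same bin joins fragments less than the bin's length apart, whereas a pair between bins reports a longer contact along a chromosome (cis) or between chromosomes (trans). Enzymes reach open chromatin before compact chromatin, and at large scale the genome separates into an active, gene-rich compartment and an inactive one, while at smaller scale it folds into domains whose boundaries few contacts cross. Whether a bin was cut early or late is not measured directly by these files, and the number of HindIII sites in each bin was not analysed here.

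The top-decile bins started with a far higher self share than other bins and ended slightly below them in the balanced signal, and further below them in recovered contacts, the whole contacts that the signal was made from. In the balanced signal, the median self share of the top-decile bins was 12.7% and 18.7% in replicates 1 and 2 at 0.25 h. The 1 h values were 10.4% and 11.3%, those of 3 h were 9.06% and 9.62%, and by 12 h they had come down to 4.25% and 4.19%. The medians of the 112914 other bins stood at 7.16% and 7.50%, then 6.80% and 6.81%, then 6.58% and 6.43%, and finally 4.48% and 4.40%. The self share of the top-decile bins was therefore highest in the 0.25 h libraries, fell at each longer time in both replicates, and came to lie slightly below that of other bins at 12 h. As a share of recovered contacts, the top-decile medians began at 11.1% and 17.6%, passed through 8.95% and 9.81% after 1 h and 7.63% and 8.19% after 3 h, and finished at 3.37% and 3.32%. The other bins had 7.24% and 7.48%, then 6.92% and 6.90%, then 6.69% and 6.53%, and in the end 4.62% and 4.54%. In recovered contacts the gap was thus smaller at 0.25 h, 1 h and 3 h, and at 12 h it was wider, with the top-decile bins lower in both replicates. The ratio of the balanced medians, top-decile over other, went from 1.77 and 2.49 at 0.25 h through 1.53 and 1.66 at 1 h and 1.38 and 1.5 at 3 h to 0.949 and 0.953 at 12 h. Averaged over the replicates, the balanced top-decile medians were 15.7% ± 4.27 (SD, n = 2), 10.8% ± 0.603, 9.34% ± 0.392 and 4.22% ± 0.0407 in order of time. The spread at 0.25 h exceeded that at every other time, with replicate 2 the higher. Of the top-decile bins, 81.9% were in the top 10% of D by replicate 2 alone and 72.5% by replicate 1 alone. The choice thus leaned more on replicate 2, and its part in the gap between the replicates was not tested. Replicate 2 at 0.25 h was also the least deep library, with 62777251 recovered contacts against 78895077 to 176412222 in the other 7. A rule without that library kept 79.1% of the top-decile bins.

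**Figure D1:**
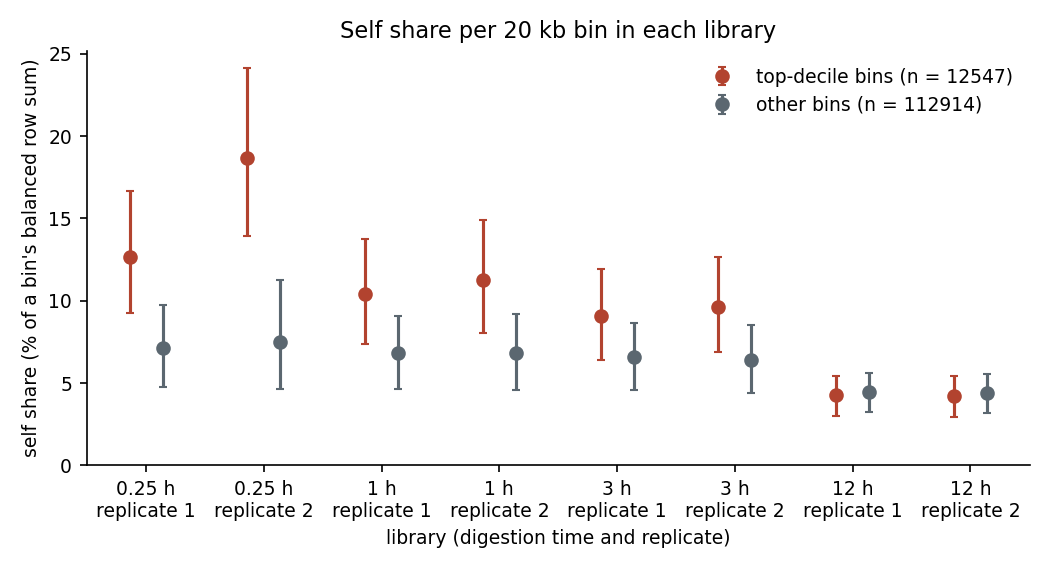
Self share of 20 kb bins, in percent of a bin's balanced row sum, in each of the 8 libraries; points are medians and bars run from the lower to the upper quartile over bins. The top-decile medians fall from 12.7% and 18.7% at 0.25 h to 4.25% and 4.19% at 12 h, where the quartiles of both groups of bins overlap almost fully.

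Most of the top-decile bins were marked by a high early value, fewer by a low late one. Of the 12547 bins, 6571 (52.4%) stood in the highest decile of self share at 0.25 h, 1750 (13.9%) in the lowest decile at 12 h, 70 (0.558%) in both and 4296 (34.2%) in neither. Of all ranked bins, 10% stood in each of these deciles, 0.0558% in both and 80.1% in neither. Library by library, 43.8% and 56.9% of them were in the highest decile of all bins at 0.25 h. The share was 36.2% and 39.9% at 1 h and 30.5% and 34.9% at 3 h, in libraries that played no part in the choice, and 10.3% and 10.7% in the 12 h libraries, next to the 10% of all bins. Bins were also compared within deciles by total contacts. In each of the 4 libraries of 1 h and 3 h, the top-decile bins had the higher median self share in 10 of 10 deciles. In the libraries that the rule used, they had it in 10 of 10 at 0.25 h, which largely follows from the choice. At 12 h they had it in 4 of 10 in each library.

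The rule chose on self share at 0.25 h and 12 h, so a large change in self contacts between these times largely follows from the choice. Counted as recovered contacts per 1000000 contacts of a library, a top-decile bin held on average 1.27 and 2.07 self contacts in the 0.25 h replicates, then 1.04 and 1.14 after 1 h and 0.904 and 0.959 after 3 h. The 12 h replicates had 0.415 and 0.409. The 0.25 h mean was 4.06 times the 12 h mean, against 1.82 times in other bins. Contacts with other bins moved little and in the opposite direction: 8.34 ± 0.279 (SD, n = 2) per 1000000 at 0.25 h, then 8.74 ± 0.0180 after 1 h and 8.91 ± 0.00644 after 3 h, reaching 9.64 ± 0.0115 in the 12 h libraries. That is 0.865 times the 12 h level at 0.25 h, close to the 0.881 times of the other bins. Between 1 h and 3 h, which the rule did not use, the differences were smaller. The 1 h mean of self contacts was 1.17 times the 3 h mean, against 1.05 times in other bins. For contacts with other bins these ratios were 0.981 and 0.987. The top-decile bins thus held fewer contacts per library total than other bins at all 4 times. As a part of the library total, their contacts with other bins stood lower at 0.25 h than at 12 h by about the same factor as elsewhere. Since these counts are scaled to the library total, a fall in self contacts over all bins must be met by a rise in contacts between bins. The opposite direction is thus at least partly set by the scaling.

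**Figure D2:**
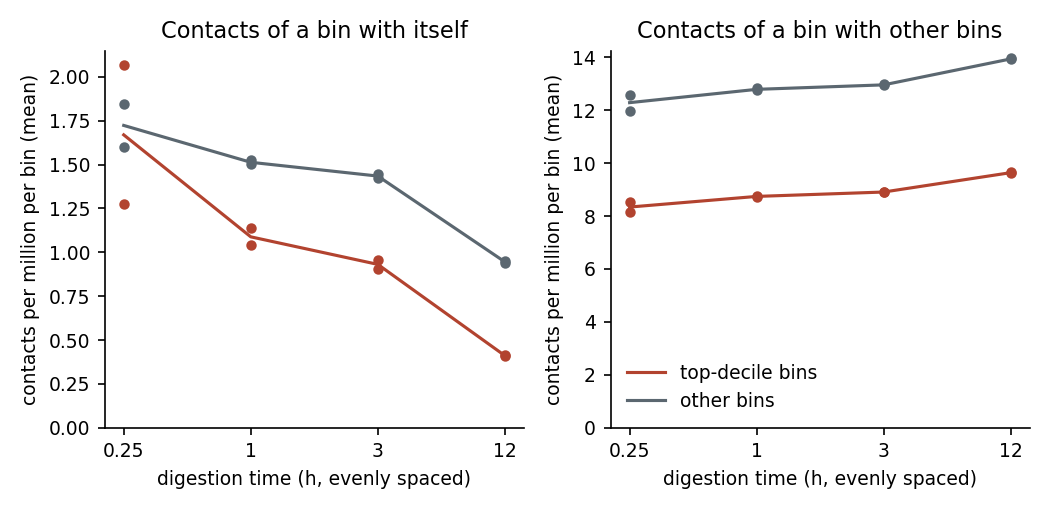
Mean recovered contacts per bin and per 1000000 contacts of the library, against digestion time in hours on an evenly spaced axis, for contacts of a bin with itself and with other bins; points are libraries and lines join the means of 2 replicates. Self contacts of top-decile bins fall 4.06-fold from 0.25 h to 12 h and those of other bins 1.82-fold, while contacts with other bins run nearly parallel.

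The 1 h and 3 h libraries showed a difference of the same sign. The median log2 ratio of self share at 1 h over 3 h was 0.21 in the top-decile bins and 0.08 in other bins, a difference of 0.13, and it was 0.14 in replicate 1 and 0.13 in replicate 2. Of the top-decile bins, 77.6% lay above the median of the other bins. The size of the difference depended on single libraries: it was 0.08 without 1 h replicate 2, 0.08 without 3 h replicate 1, and 0.19 without 1 h replicate 1 or without 3 h replicate 2. With a rule that left out 0.25 h replicate 2, it was 0.12.

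No single bin passed the test of that step. In limma across 122337 bins with self contacts in all 4 libraries, with log2 self shares centred on each library's median, 0% of bins were higher at 1 h and 0% lower at a Benjamini-Hochberg adjusted p under 0.05, and the smallest adjusted p was 0.776. With 2 libraries a time, 12037 of the top-decile bins were testable. At an unadjusted p under 0.05, 3.61% of all bins tested were higher at 1 h and 2.15% lower. Among the top-decile bins these shares were 14.3% (1725 bins) and 1.19% (143 bins). The share of 14.3% was 26.8% without centring and 21.2% without 1 h replicate 1, where 7.90% and 5.48% of all bins were higher. It became 8.94% without 1 h replicate 2, 8.50% without 3 h replicate 1 and 5.56% when all 8 libraries were fitted together, while that over all bins tested became 2.79%, 3.05% and 1.91%. With 1 library left out, the lone library of its time is assumed to vary like the pair of the other time, which alone gives the spread. Without centring, 9662 bins were higher and 1372 lower at 1 h by the unadjusted p, against 4421 and 2630 with it.

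D was repeatable as a measurement, though not in every bin. Between replicates, D correlated across 121857 bins with a Pearson r of 0.546, and with an r of 0.768 across the 88478 bins that held at least 20 self contacts in all 8 files; bins share libraries and are not independent. Bins in the top 10% by replicate 1 alone had a median D of 1.97 in replicate 2, where the remaining bins had 0.83, and 61.7% of them were also in its top 10%. Chosen in replicate 2, the median D in replicate 1 was 1.45 against 0.71, and 60.5% were shared. The median standard error of D from counts alone was 0.18 in the top-decile bins. At least 20 self contacts in all 8 files were held by 9303 of the 12547 bins (74.1%) and by 70.5% of all bins with a D. Amplified reads were not told apart from independent molecules, and this standard error covers counting error only.

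The first sequencing run, binned by the authors at 50 kb, carries the same times and replicate numbers in its labels and was taken here as a sequencing of the same libraries, which the labels do not state outright. Only its autosomal bins with 2 ranked bins of 20 kb wholly inside them were used. Of these, 38914 held no top-decile bin inside them, 8290 held 1 and 530 held 2. Bins of 20 kb that crossed an edge of a 50 kb bin were not counted, so some of the 38914 may overlap a top-decile bin. Their median log2 self share ratio of 0.25 h over 12 h was 0.64, 0.90 and 1.23 in that order. For the times that the rule did not use, 1 h over 3 h, it was 0.06, 0.10 and 0.15. If the runs share their libraries, this repeats the sequencing and not the cells.

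Top-decile bins were scattered, with neighbours close to the general run of bins. Of the 12547, 10052 (80.1%) had no adjacent top-decile bin, against 82.4% of the other bins, and the remainder formed 1045 runs of 2 bins, 112 of 3, 12 of 4, 3 of 5 and 1 of 6. A bin 20 kb away from a top-decile bin was itself one in 11.2% of cases. At 40 kb the figure was 10.8%, at 100 kb 10.7%, at 200 kb 10.9%, at 500 kb 10.1%, at 1000 kb 10.7%, at 2000 kb 9.83% and at 5000 kb 10.3%, all near the 10% of bins in general and with no steady order beyond 40 kb. D of a bin and of the next one correlated with an r of 0.022, or 0.040 among bins with at least 20 self contacts, whereas the log of total contacts of adjacent bins correlated with an r of 0.489. The neighbours' own self shares were ordinary. At 0.25 h the median was 7.77% beside top-decile bins and 7.79% beside other bins, and at 1 h it was 7.08% beside both.

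**Figure D3:**
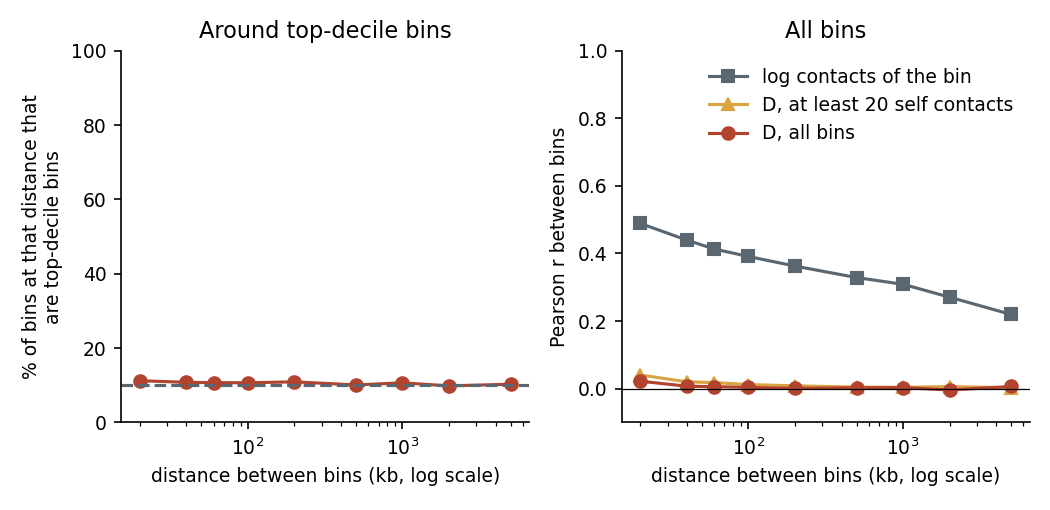
Left, the percentage of bins at a given distance (kb, log scale) from a top-decile bin that are top-decile bins too, with a dashed line at 10%; right, Pearson r between bins at that distance for the log of total contacts and for D. The left curve starts at 11.2% at 20 kb and then moves between 9.83% (2000 kb) and 10.9% (200 kb), and r of D starts at 0.022 while r of log contacts starts at 0.489.

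The longest run was chr1:246880001-247000000, 6 bins whose mean D was 1.76. Its mean self share was 15.5% and 20.4% at 0.25 h, then 13.7% and 13.6% after 1 h and 12.0% and 12.0% after 3 h, and it ended at 5.17% and 5.35%. Its replicates differed at 0.25 h and were close at the later times. Runs of 5 bins lay at chr19:12420001-12520000 (mean D 2.22), chr1:17260001-17360000 (2.17) and chr13:98440001-98540000 (1.78). The chromosome 19 run went from 17.8% and 28.9% at 0.25 h through 14.6% and 18.1% at 1 h and 12.1% and 12.4% at 3 h to 5.85% and 4.76% at 12 h. Its replicates differed most at 0.25 h and were close at 3 h. The chromosome 13 run kept the higher self shares, with 22.1% and 30.6% at 0.25 h, 21.4% and 23.4% after 1 h, 18.4% and 20.7% after 3 h, and 6.07% and 10.3% in the last libraries.

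The remaining runs among the 10 longest each spanned 4 bins. Among them, chr1:2280001-2360000 had the highest mean D of the 10 (2.39), but 1 of its bins, at a D of 4.03, carried it. Its lowest bin stood at 1.61, and the largest counting standard error of D among its bins was 1.77. Over the 4 bins of chr1:2280001-2360000, the mean self share was 18.7% and 28.7% at 0.25 h and 6.84% and 6.22% at 12 h. Thin bins also stood in the run at chr1:17260001-17360000 (largest counting standard error 1.77) and in chr13:58740001-58820000 (1.17). The longest run (0.80) and chr9:35060001-35140000 (0.74) held them too. The other runs of 4 bins, with their mean D, were chr7:51660001-51740000 (2.23), chr13:58740001-58820000 (2.14), chr9:35060001-35140000 (1.94), chr7:148160001-148240000 (1.93) and chr13:37480001-37560000 (1.86). In 10 of these 10 runs the mean self share at 1 h exceeded that at 3 h in both replicates, as it did in 61.6% of all 109747 windows of 4 adjacent ranked bins. In 9 of 10 it fell at every step in both, against 47.3% of the windows, and the rule itself used the first and last of these times. In 10 of 10, replicate 2 was above replicate 1 at 0.25 h. The medians had the same order, at 18.7% against 12.7% in all top-decile bins and 7.50% against 7.16% in other bins. How often windows in general had that order was not analysed.

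The highest D outside those runs, among bins with at least 20 self contacts in all 8 files, was 3.22 (9.31-fold) at chr6:141120001-141140000. Its self share was 15.5% and 34.1% at 0.25 h, then 15.5% and 13.9% after 1 h, 9.71% and 10.1% after 3 h, and in the 12 h libraries 2.09% and 3.24%. Replicate 2 was far above replicate 1 at 0.25 h, and only 20 and 24 self contacts stood behind the 12 h values. The best covered of the highest was chr22:23180001-23200000 (D 3.14), with 646 and 697 self contacts at 0.25 h and 196 and 186 at 12 h. There the self share was 10.3% and 18.5% at 0.25 h, then 6.10% and 8.09% after 1 h, 5.04% and 6.31% after 3 h, and in the 12 h libraries 1.47% and 1.78%. It fell at every step in both replicates.

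The third was chr7:127280001-127300000 (D 3.06), at 17.7% and 24.4%, 11.2% and 13%, 8.45% and 9.05%, and 2.48% and 2.56% in order of time. The other 7 of these 10 bins had D from 2.98 to 3.04. They lay at chr16:79280001-79300000, chr13:91480001-91500000, chr6:131480001-131500000, chr1:221240001-221260000, chr10:31020001-31040000, chr11:100100001-100120000 and chr1:47900001-47920000, so that the 10 bins were spread over 8 chromosomes. In 8 of 10 the self share at 1 h exceeded that at 3 h in both replicates. So it did in 73.2% of the top-decile bins and 49.6% of all bins with at least 20 self contacts in all 8 files.

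Bins at the threshold were much alike on either side. Just inside it, chr5:77220001-77240000 had self shares of 13.3% and 19.4% at 0.25 h and 5.79% and 5.50% at 12 h. Just outside, chr12:127900001-127920000 had 15.5% and 22.6% at 0.25 h and 6.52% and 6.65% at 12 h. Both had a D of 1.533. Thin bins lay there too: chr10:12660001-12680000, just inside, held self shares of 2.96% and 0% at 0.25 h and 0% and 1.024% at 12 h. The other bins just inside were at chr10:37640001-37660000, chr10:25960001-25980000 and chr3:65360001-65380000. Those just outside were at chr13:68900001-68920000, chr13:52320001-52340000, chr10:52280001-52300000 and chr14:41940001-41960000.

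How many contacts a bin held was strongly related to membership. When all bins with a D were cut into deciles by their total recovered contacts over the 8 files, 18.2% of the decile with the fewest contacts were top-decile bins (2284 bins), and the share fell at every decile to 1.36% (171 bins) in the one with the most. The SD of D over bins fell in the same order from 0.99 to 0.27. The median of D moved much less, and the other way, from 0.70 to 0.87. The bins with the fewest contacts thus had the widest spread of D and a lower median D than those with the most. In the set of bins that were in the top 10% in each replicate, the share was 9.03%, 9.93% and 9.37% in the 3 lowest deciles and then fell to 0.646% in the highest. For most of the positional shares below, the share that the bins' deciles of contacts alone would give stands beside them.

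Chromosomes differed in how many of these bins they held. The highest shares of top-decile bins were on chromosome 19 (16.2% of 2148 bins), chromosome 22 (15.3% of 1434) and chromosome 17 (13.6% of 3441). The lowest were on chromosome 5 (8.78% of 8517), chromosome 3 (8.87% of 9415) and chromosome 14 (9.06% of 4151). From their deciles of contacts, 14.7%, 14.2% and 13.3% would be top-decile bins on chromosomes 19, 22 and 17, and 8.48%, 9.93% and 12.8% on chromosomes 5, 3 and 14. Observed over expected ran from 0.707 on chromosome 14 to 1.25 on chromosome 7 and was 1.10 on chromosome 19. Over the 22 chromosomes, the share of top-decile bins correlated with protein-coding genes per bin with an r of 0.791 (Spearman's rho 0.564) and with the median contacts per bin with an r of -0.799 (rho -0.616). Observed over expected correlated with genes per bin with an r of 0.221 (rho 0.194). Genes per bin were taken over all bins of a chromosome, absent ones included, whereas the shares are over ranked bins only. Chromosomes with long absent stretches thus have lower genes per bin than their ranked bins would give. These correlations are descriptions over 22 chromosomes that share all 8 libraries, and K562 carries extra or missing copies of chromosome segments, which also set a bin's contacts. The part of copy number in these shares was not tested.

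**Figure D4:**
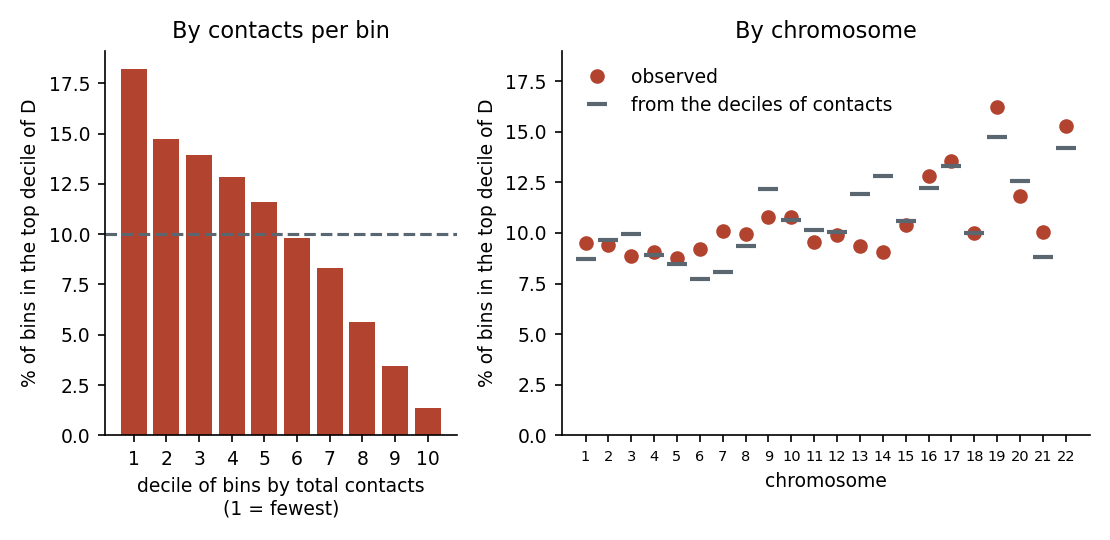
Percentage of bins in the top decile of D, left by decile of bins ranked by total contacts (dashed line at 10%) and right by chromosome, where dashes give the percentage expected from the deciles of contacts. The share falls from 18.2% in the decile with the fewest contacts to 1.36% in that with the most, and chromosomes 19, 22 and 17 are high in both the observed and the expected values.

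Chromosome ends held more top-decile bins, as their contacts would give. Within 0.5 Mb of an end 14.6% of bins were in the top decile against 13.8% expected, and more than 50 Mb away 8.82% against 9.01%; observed over expected stayed between 0.979 and 1.05 in all 8 classes of distance. The opposite was seen beside the longest stretch of absent bins of each chromosome, which usually covers the centromere. Within 0.5 Mb of it 7.51% of 719 bins were in the top decile against 12.0% expected, and from 0.5 to 1 Mb 9.28% against 12.2%. From 5 Mb outwards observed over expected was between 0.947 and 1.03. Bins with 1 absent neighbour were top-decile bins in 14.8% of cases and those with 2 in 18.5%, against 14.9% and 17.6% expected. Of the top-decile bins 95.8% had no absent neighbour, and of the other bins 97.4%.

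Compartments divided the top-decile bins little. The first eigenvector of the distance-corrected cis map at 100 kb came from the 1 h and 3 h libraries. On each chromosome its sign was set so that it rose with trans contact to chromosomes 17, 19 and 22 relative to chromosomes 4, 13 and 18. Class 1 is its positive side. Of the bins with a class, class 1 held 54.5% of the top-decile bins and 51.7% of all; 71 top-decile bins among 484 bins had no class. Of class 1 bins 10.5% were in the top decile, and of class 2 bins 9.41%, against 10.6% and 9.33% from their contacts. Along the eigenvector, the share rose from 8.66% in the lowest decile to 11.7% in the seventh and fell to 8.71% in the highest, against 8.29%, 10.9% and 9.31% from their contacts. On chromosome 9 the eigenvector followed the trans preference poorly (r 0.258, against 0.516 to 0.872 elsewhere), and its classes there are uncertain.

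Position relative to domains was described in the same way. The insulation score, the log2 of the contacts crossing a bin within 500 kb over the typical value, had a median of -0.00036 in the top-decile bins and 0.0067 in other bins in the 1 h and 3 h libraries. The difference of -0.0070 is small beside the SD of 0.335 over bins, and it became 0.0043 with a 200 kb window and -0.015 within deciles of contacts. Minima of the score gave 3553 boundaries. Of the top-decile bins, 8.85% lay at a boundary or in the bin next to it, against 7.82% of all bins. The boundary bins themselves were in the top decile in 8.71% of cases (10.8% expected from contacts, median D 0.74), while bins 20 kb from a boundary were so in 12.6% (10.2% expected, median D 0.81) and bins 40 kb away in 10.1% (10.3% expected). Boundary bins and the bins beside them thus lay on opposite sides of the general 10%. The score of a bin leaves out that bin's own contacts, whereas the scores of the bins beside it include them. How far this construction shapes the contrast was not tested.

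None of the 2651 domains between boundaries with at least 20 ranked bins consisted mostly of top-decile bins, while 8 of all 3573 domains, each smaller than that, did so in at least 50% of their bins. The larger domains had a median of 9.43% top-decile bins, and 10th and 90th percentiles of 3.57% and 17.5%, and 106 of them held none. Around the counts that contacts would give, their variance was 1.35 times the binomial value, so they were somewhat less evenly mixed than independent bins would be. The highest share was 45.5%, 10 of 22 bins, in chr9:138620001-139260000. Next came chr22:37860001-38400000 with 9 of 20, chr1:17220001-17740000 with 8 of 22, chr14:104520001-105120000 with 10 of 28 and chr19:45040001-45900000 with 11 of 31. Contacts alone would give 15.3% to 18.04% in these 5. They were picked for the highest shares among the 2651, so standing above that range follows in part from the choice. The chromosome 1 domain contains the run of 5 bins at chr1:17260001-17360000 named above.

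In their contacts with other bins, top-decile bins leaned slightly to trans in the balanced signal. With self contacts set aside, trans contacts made up 14.1% ± 0.240 (SD, n = 2) of the signal of top-decile bins and 13.6% ± 0.274 of that of other bins at 1 h, and 14.1% ± 0.348 against 13.5% ± 0.341 at 3 h. In all 8 libraries the trans share was higher in top-decile bins, by 0.456 to 0.814 percentage points, and by 0.0998 to 0.630 points within deciles of contacts. The share of cis contacts over more than 1 Mb and up to 10 Mb differed by -0.769 to -0.509 points, and that of contacts over 10 Mb by -0.543 to -0.45 points, so both were lower in top-decile bins. Within deciles of contacts these differences were -0.275 to -0.139 points and -0.0879 to -0.0336 points. The share from 120 kb to 1 Mb was higher by 0.315 to 0.404 points in all 8 libraries, and differed by -0.0345 to 0.119 points within deciles of contacts. In recovered contacts within deciles of contacts, this share was higher by 0.113 to 0.284 points in all 8 libraries. The share of contacts from 20 to 100 kb was higher by 0.0715 to 0.180 points, but within deciles of contacts the difference was -0.233 to -0.0158 points. In recovered contacts, without deciles, the 20 to 100 kb share differed by -0.752 to -0.367 points and the trans share by 1.12 to 1.3 points. With recovered in place of balanced contacts and within deciles of contacts, the trans difference was -0.0501 ± 0.0620 points (SD, n = 2) at 0.25 h, 0.00615 ± 0.0717 after 1 h, 0.123 ± 0.0266 after 3 h and 0.305 ± 0.128 in the 12 h libraries. At 0.25 h and 1 h it was thus smaller than the spread between replicates, and at 0.25 h its sign was opposite to that in the balanced signal. Counted with self contacts in the total, the trans share of top-decile bins differed from that of other bins by -0.025 points over the 4 libraries of 1 h and 3 h, less than the SD of 0.182 between libraries.

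The leading partner chromosomes of these trans contacts, 19, 22 and 17, were also those with the highest shares of top-decile bins. Against all ranked bins of the same chromosome, over the 4 libraries of 1 h and 3 h, top-decile bins gave chromosome 19 a share 1.05 ± 0.0142 (SD, n = 4) times as large, chromosome 22 one 1.04 ± 0.00907 times and chromosome 17 one 1.04 ± 0.0110 times. The lowest were chromosome 21 at 0.963 ± 0.00340, chromosome 18 at 0.974 ± 0.00332 and chromosome 13 at 0.981 ± 0.000850. At these extremes the distance from 1 exceeded the spread between the libraries, and the values at 0.25 h and 12 h had the same sides (1.03 and 1.06 for chromosome 19, 0.951 and 0.961 for chromosome 21). Over all partner chromosomes the ratio ranged from 0.963 to 1.05. These ratios were not matched for the bins' contacts or compartment class. Whether other bins with few contacts share the same lean was not tested.

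Top-decile bins did not contact one another in trans much beyond expectation. Observed over expected signal between top-decile bins of different chromosomes, with each chromosome pair's total kept, was 1.008 ± 0.00255 (SD, n = 2) at 0.25 h, 1.003 ± 0.00659 after 1 h, 1.013 ± 0.00724 after 3 h and 1.008 ± 0.00235 in the 12 h libraries. A second ratio pooled all chromosome pairs and kept the totals between deciles of contacts instead. It was 1.001, 0.997, 1.006 and 1.000 in the same order. Pooled likewise, with the totals between compartment classes kept, it was 1.011, 1.007, 1.017 and 1.011. The pooled ratios do not keep each chromosome pair's total, so they are not directly comparable with the first. Over all 100 pairs of deciles of D at 1 h and 3 h, the ratio ranged from 0.991 to 1.03. The top decile with itself stood at 1.008 ± 0.00785 (SD, n = 4), and the bottom decile with itself had the larger value, 1.03 ± 0.00207.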

How the data were processed

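Members and lists were chosen with earlier results of these data known. The authors' deposited files list pairs of bins with a balanced contact signal, upper triangle only; row sums were constant within a file. Per the submitters' processing notes, the tools include HiC-Pro 2.11.1 and Bowtie2 2.3.4.1 and the build is hg19; bin totals of 154795 (20 kb, second run) and 61928 (50 kb, first run) match the hg19 chromosome lengths. The files carry no header, and the filter behind absent bins is not given in the sources used here.

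From the deposited signal, whole contacts were recovered per file (all but a negligible share of values fell within 0.01 of a whole number); totals ran from 62777251 to 176412222. Self shares, D, eigenvectors (100 kb), insulation (500 kb window, boundaries at minima with a prominence of 0.2), partner chromosomes and trans ratios were computed with Python 3.11.15, numpy 2.4.6 and scipy 1.17.1. Self shares at 1 h and 3 h were compared with limma 3.58.1 in R 4.3.3 on log2 self shares centred per library, with a mean trend and no pseudocount. Recovery and limma were tested on simulated data.

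Named regions are the 10 longest runs (ties by mean D), the 10 highest D outside them with at least 20 self contacts in all 8 files, 5 bins on each side of the threshold, the 3 highest and 3 lowest chromosomes and partner chromosomes, and the 5 domains of at least 20 bins with the highest shares. Genes per chromosome came from a RefSeq table of another build, used for counts of genes only. No hg19 sequence or gene annotation was used here, so no gene or sequence is named.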

Additional observations from a re-analysis of the deposited data

How the results depend on the processing

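Alternatives changed the rule (recovered contacts, top 5% or 20%, each 0.25 h or 12 h library left out, top 10% in each replicate) or the measure. A set ranked only among bins with at least 20 self contacts in all 8 files was chosen after seeing the data. The count of top-decile bins called between 1 h and 3 h by limma stayed at 0 under all 19 alternatives. At an unadjusted limma p under 0.05, 1725 were higher at 1 h in the main setting (14.3%, and 3.61% of all bins tested). That count varied: it was 662 with all 8 libraries fitted (5.56%, and 1.91% of all) and 3221 without centring (26.8%, and 7.90%). Those lower at 1 h numbered 143, 68 and 82 in the same order. With 1 library left out, the spread comes from the pair of the other time alone. The difference in log2 self share between 1 h and 3 h kept its sign in all 13 alternatives. It was 0.159 with the top 5%, 0.108 with the top 20%, and ran from 0.0771 to 0.186 with single libraries left out.

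The percentage in class 1 was 53.7% with recovered contacts for the rule, 57.1% and 52.6% with the top 5% and 20%, and 53.4% to 57.5% with single libraries left out of the rule. It was 53.2% in the bins with at least 20 self contacts and 54.9% at 500 kb. With eigenvectors from 0.25 h, 12 h, 1 h replicate 2 and 3 h replicate 1 it was 54.0%, 54.8%, 54.3% and 54.1%. The insulation difference was -0.00589 with recovered contacts for the rule, -0.0130 and -0.00121 with the top 5% and 20%, -0.0108 to -0.00441 with libraries left out, and -0.00861 with at least 20 self contacts. It was -0.0211 with a 1 Mb window, -0.00566 from 12 h and -0.00872 from 3 h replicate 2, and reversed to 0.00428 with a 200 kb window. The cause was not tested.

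The percentage next to a boundary was 9.69% and 8.10% with the top 5% and 20%, and 8.62% to 9.32% with libraries left out. Prominences of 0.1 and 0.4 and a 200 kb window gave 12.0%, 6.11% and 14.8%, against 10.3%, 5.47% and 13.4% of all bins. Member to member trans contacts reached 1.022 with the top 5% and ran from 1.005 to 1.016 with libraries left out. The percentage next to a top-decile bin was 19.9% in the report's set, 18.5% with recovered contacts for the rule, and 19.6% to 20.7% with libraries left out. It was 11.4% and 36.5% with the top 5% and 20% (smaller and larger sets by construction). With at least 20 self contacts it was 14.7%, also in a smaller set (8848 bins). The trans difference, self contacts included, was -0.227 points with recovered contacts for the rule and -0.311 with at least 20 self contacts. It reversed to 0.144 with the top 5% and to 0.853 with recovered in place of balanced contacts, and ran from -0.0936 to 0.320 with libraries left out, reversing without 0.25 h replicate 2 (0.320) and without 12 h replicate 1 (0.0505).

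Correlations of the replicate 1 minus replicate 2 deviations between times were all positive, from 0.0263 to 0.176 over 88478 bins. The highest were between 0.25 h and 1 h (0.176) and between 0.25 h and 3 h (0.175). They were not all over 0.1, the criterion used here for pairing libraries by replicate number. That criterion cannot show that pairing is absent, so values with the replicate number as a block are given too. With the replicate number as a block, limma called 0 bins, and 19% of the top-decile bins were higher at 1 h at an unadjusted p under 0.05, as were 4.41% of all bins tested. With the replicate block in the rule (top 10% in each replicate, 7287 bins), the log2 difference was 0.149, 55.9% were in class 1 and the insulation difference was -0.0171. There 12.6% lay next to another such bin, a share that a smaller set lowers by construction. Depth leaves some bins thinly covered: 74.1% of the top-decile bins and 70.5% of all bins with a D had at least 20 self contacts in all 8 files.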
